A study of Mus musculus with 16 samples.

Results

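Chromatin accessibility in G2 was compared with that in the LS fraction of control mouse embryonic stem cells. The comparison takes the pooled columns of ethanol (EtOH) treated cells in G2 and LS, which stand for 4 of the 16 libraries of the series. ATAC-seq, which marks open DNA by where the Tn5 enzyme can cut and tag it, was run on mouse embryonic stem cells of the genotype FOXD3-iKO. This inducible knockout was present in every group; tamoxifen (4HT) induces loss of FOXD3, and EtOH is its control, each given for 24 h. Cells were cultured in medium with L2i and sorted by DNA content after DAPI staining into fractions called G1, ES, LS and G2, names that are used here as the labels give them. Each of the 8 groups, EtOH or 4HT in 1 of 4 fractions, has 2 libraries in 1 pooled column, so values in EtOH carry no SD and no test. The 4HT columns of G2 and LS, from other libraries, served as a second pair of columns, and they differ from the EtOH pair by the 4HT treatment.

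Cells pass from S phase, in which DNA is copied and new nucleosomes are laid down, through G2 into mitosis. Genes for mitotic kinases, cyclin B and the spindle are transcribed mostly in G2. Their promoters often hold CCAAT boxes, bound by NF-Y, and a cell cycle genes homology region (CHR), bound by the DREAM and MuvB complexes. Replication genes are driven by E2F factors ahead of S phase, and the replication-dependent histone genes, which lie in clusters, are expressed during S phase and shut down as it ends.

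To show what these promoters look like, 7 are printed from RefSeq on GRCm38.p6, from 250 bases before to 50 after the start. They are those of a noncoding gene at a window called below (Gm15564, the first of its listed starts), of 4 mitotic genes (Nek2, Ckap2, Ccnb1 and Kif23), of a replication gene (Mcm3) and of a histone gene (H2ac6). Capitals mark matches, on either strand, to 4 motifs. The CHR was searched as TTTGAA. The box bound by NF-Y was searched as CCAAT. The letters for E2F were TTCCCGC. Those of the TATA box were TATAAA. No match overlaps another in these promoters. The positions are chr16:35983280-35983579, minus strand for Gm15564, chr1:191821223-191821522, plus strand for Nek2, chr8:22185770-22186069, minus strand for Ckap2, chr13:100786437-100786736, minus strand for Ccnb1, chr9:61946750-61947049, minus strand for Kif23, chr1:20820263-20820562, minus strand for Mcm3 and chr13:23683910-23684209, minus strand for H2ac6.
Gm15564: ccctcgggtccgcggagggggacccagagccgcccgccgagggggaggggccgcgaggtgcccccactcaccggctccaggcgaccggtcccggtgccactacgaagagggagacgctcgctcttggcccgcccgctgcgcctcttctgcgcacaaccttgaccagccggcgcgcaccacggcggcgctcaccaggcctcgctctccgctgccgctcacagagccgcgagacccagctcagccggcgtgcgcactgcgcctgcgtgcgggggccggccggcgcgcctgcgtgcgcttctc
Nek2: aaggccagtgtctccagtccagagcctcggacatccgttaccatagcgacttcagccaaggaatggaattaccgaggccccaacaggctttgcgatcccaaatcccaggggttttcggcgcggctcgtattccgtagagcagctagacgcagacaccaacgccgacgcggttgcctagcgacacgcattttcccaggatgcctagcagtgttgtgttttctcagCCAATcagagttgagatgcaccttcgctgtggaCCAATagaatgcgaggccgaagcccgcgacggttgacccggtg
Ckap2: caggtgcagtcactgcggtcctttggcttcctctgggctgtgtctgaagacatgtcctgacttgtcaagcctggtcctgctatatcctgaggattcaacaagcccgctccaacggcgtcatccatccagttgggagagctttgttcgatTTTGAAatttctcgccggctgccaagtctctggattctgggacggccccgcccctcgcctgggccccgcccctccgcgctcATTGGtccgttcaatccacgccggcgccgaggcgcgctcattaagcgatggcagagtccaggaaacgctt
Ccnb1: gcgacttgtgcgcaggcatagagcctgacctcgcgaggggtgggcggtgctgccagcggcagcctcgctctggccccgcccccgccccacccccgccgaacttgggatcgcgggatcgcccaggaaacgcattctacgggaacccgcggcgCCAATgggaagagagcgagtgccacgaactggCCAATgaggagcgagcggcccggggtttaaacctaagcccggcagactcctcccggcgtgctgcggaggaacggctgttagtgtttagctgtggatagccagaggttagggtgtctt
Kif23: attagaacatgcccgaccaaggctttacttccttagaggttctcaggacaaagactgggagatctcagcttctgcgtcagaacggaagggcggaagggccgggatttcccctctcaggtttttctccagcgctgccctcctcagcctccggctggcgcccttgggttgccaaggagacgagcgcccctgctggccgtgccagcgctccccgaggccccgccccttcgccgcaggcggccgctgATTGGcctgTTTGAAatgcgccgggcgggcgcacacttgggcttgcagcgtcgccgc
Mcm3: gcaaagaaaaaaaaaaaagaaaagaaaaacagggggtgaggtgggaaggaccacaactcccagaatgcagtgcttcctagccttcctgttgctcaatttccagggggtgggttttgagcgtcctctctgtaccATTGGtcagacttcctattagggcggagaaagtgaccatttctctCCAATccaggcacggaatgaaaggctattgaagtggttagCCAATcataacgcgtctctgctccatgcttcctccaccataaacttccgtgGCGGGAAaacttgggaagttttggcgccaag
H2ac6: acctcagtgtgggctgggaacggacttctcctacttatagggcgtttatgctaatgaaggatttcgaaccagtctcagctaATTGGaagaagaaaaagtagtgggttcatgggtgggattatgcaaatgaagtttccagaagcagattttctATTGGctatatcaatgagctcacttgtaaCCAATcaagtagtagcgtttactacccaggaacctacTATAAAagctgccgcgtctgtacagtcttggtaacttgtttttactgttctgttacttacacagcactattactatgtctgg

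Of all 32851 promoters of this length, 17.9% held the CHR letters, 37.4% the CCAAT box, 4.60% the E2F letters and 13.6% the TATA box. Among the mitotic genes 34 had a promoter in the table, of which 73.5% held a CHR and 76.5% a CCAAT box. Of 39 replication gene promoters, 41.0% held the E2F letters, and of 46 histone promoters 91.3% held a CCAAT box and 54.3% a TATA box. The Gm15564 promoter has none of the 4 motifs and a GC content of 76.7%, against 41.7% for H2ac6. A match is a description of the letters and no evidence of binding.

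The implied depth was 8.17 M reads for LS and 11.2 M for G2 in EtOH, and 11.1 M and 8.87 M in 4HT, so the deeper fraction differs between the treatments. A level is given as a multiple of the value of 1 read in its column, averaged over the bases of the interval that hold a read. All windows have the same length, but the average leaves out bases without a read and cannot fall below 1, so levels set side by side between genes compare covered bases only. Differences are log2 values of G2 minus LS after centring over the 8 columns, which also takes up the gap in depth. Of 38053 distinct TSS windows 15323 were tested, and of 127646 accessible regions 11010. In the markers of the labelled cell type, 6 of 12 embryonic stem cell genes had a mean EtOH level of 2 or more (Klf2 highest at 3.28, median 2.003), against 13.5% of all windows of protein-coding genes. None of 9 fibroblast, 6 primitive endoderm or 6 neuroectoderm markers with a window reached 2, their highest levels being 1.98 for Fn1, 1.56 for Lama1 and 1.88 for Tubb3. The wider lists used below do hold members at such levels: Lamc1 of the primitive endoderm list stood at 2.29 in LS and 2.24 in G2, the overlapping Col4a1 and Col4a2 windows at 1.96 to 2.02, and Sox21 of the neuroectoderm list at 1.59 and 2.66. The Foxd3 window itself stood at 1.27 in LS and 1.23 in G2 in EtOH.

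Of the tested promoters a small share differed by 1.5-fold or more between G2 and LS. In EtOH, 328 windows (2.14%) were at least 1.5-fold higher in G2 and 417 (2.72%) at least 1.5-fold lower, 4.86% in either direction. Levels lay near the floor of 1 read, below which no fall can be measured, with a median of 1.47 in LS over the tested windows. Correcting for reads that the averaging hides gave 878 higher and 889 lower. Whether the added windows differ was not tested. The SD of the difference over windows was 0.30, with the 5th percentile at -0.49 and the 95th at 0.48. In the 4HT columns the counts were 379 higher (2.47%) and 341 lower (2.23%), 4.7% in either direction, with an SD of 0.30. Without centring the split was 57 higher and 2082 lower as deposited (median -0.25), and 1353 higher and 96 lower as multiples of 1 read (median 0.20).

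Few of these windows differed the same way in both pairs of columns. Of the 328 higher in EtOH, 6.40% (21 windows) were also at least 1.5-fold higher in 4HT, beside 2.47% of all tested windows. These are 5.54% of the 379 higher in 4HT, beside 2.14% of all tested windows higher in EtOH. Of the 328, 13 were as far lower in 4HT. Of the 417 lower in EtOH, 3.6% (15 windows) were also lower in 4HT, beside 2.23% of all tested windows. These are 4.40% of the 341 lower in 4HT, beside 2.72% of all tested windows lower in EtOH. Of the 417, 15 were higher in 4HT. Across the 15323 windows the EtOH and 4HT differences had a Pearson r of 0.0513, and 0.0243 without the windows called below; windows that overlap share reads, and the 8 columns were centred together. The plot of the EtOH against the 4HT difference shows this as a round cloud with the 6 called windows to its upper right.

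**Figure D1:**
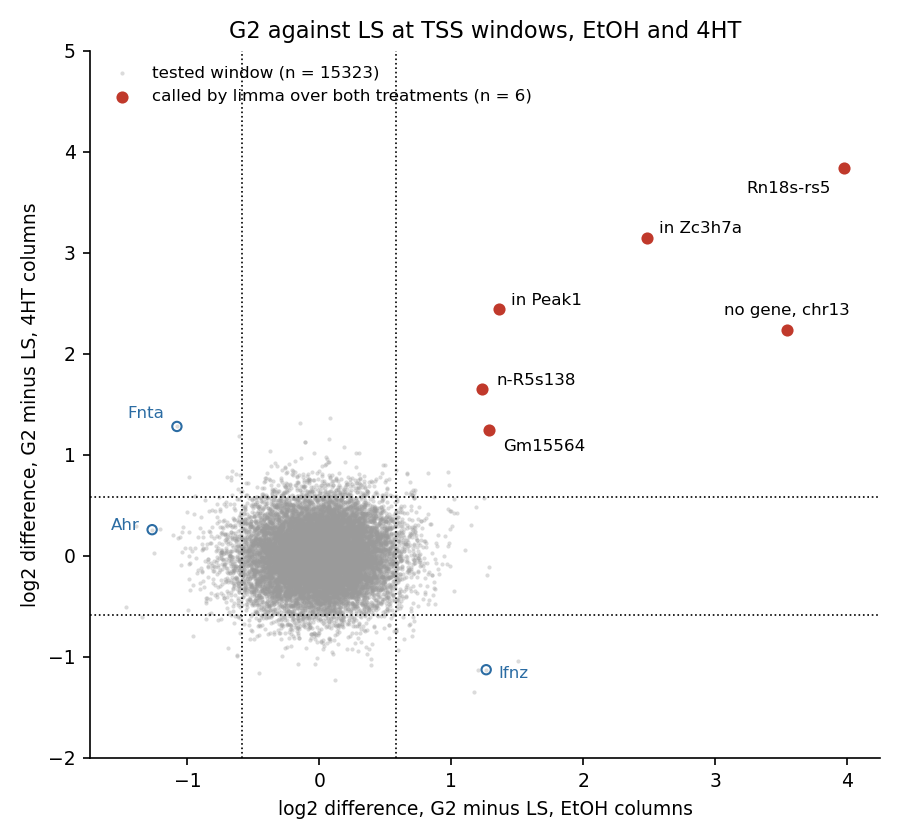
Log2 difference of G2 minus LS in the EtOH columns (x axis) against that in the 4HT columns (y axis) for 15323 tested TSS windows (grey points). Dotted lines mark 1.5-fold (log2 0.58), red points are the 6 windows called by limma over both treatments, and blue circles are Ifnz, Fnta and Ahr, which lie far out in EtOH only or on opposite sides; the red points lie in the upper right and reach 3.98 in EtOH and 3.84 in 4HT.

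Accessible regions, which are shorter and hold fewer reads, differed more widely. In EtOH 1879 regions (17.1%) were at least 1.5-fold higher in G2 and 1936 (17.6%) lower, with an SD of 0.66 and 49.5% of the tested regions above 0. In 4HT 1868 (17.0%) were higher and 1818 (16.5%) lower. Of the regions higher in EtOH 20.97% (394) were also higher in 4HT, 21.1% of those higher there, and 311 were lower. Of those lower in EtOH 19.99% (387) were lower in 4HT as well, 21.3% of those lower there, and 350 were higher. Uncentred, the EtOH counts were 1385 higher and 2499 lower as deposited (median -0.13) and 3658 higher and 872 lower as multiples of 1 read (median 0.32).

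The spread of the regions was narrower at higher levels, up to a mean multiple of 10. Those with a mean multiple under 3 had an SD of 0.69 in EtOH and 38.2% past 1.5-fold, and those between 5 and 10 had an SD of 0.45 and 16.1% past it. The 70 regions above 10, with both called regions among them, had an SD of 0.66 and 15.7% past it. For windows the SD was 0.28 under a multiple of 1.5 and 0.37 between 3 and 5. The 43 windows above 5 had an SD of 0.77, which includes 2 called windows.

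A small set of loci had higher read coverage in G2 than in LS in both treatments. In limma over all 8 columns, 6 windows were higher in G2 (0.0392% of those tested) and 0 lower (0.0%). At an unadjusted p under 0.05, 446 windows were higher and 495 lower, and the smallest adjusted p of a lower window was 0.0685. Among the regions 2 were higher (0.0182%) and 0 lower (0.0%), with 286 and 320 at an unadjusted p under 0.05 and a smallest adjusted p of 0.388 for a lower one. All 8 were higher in G2 in 2 of 2 treatments, but the call averages over both treatments and so favours a like sign.

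The widest gain was at a window named by overlap, with no matching start. It overlaps Rn18s-rs5, a pseudogene of 18S ribosomal RNA, and the 3′ end of the noncoding gene AY036118 (chromosome 17, 39846478 to 39851477, mm10). In EtOH its level was 6.76 in G1, 4.39 in ES, 3.05 in LS and 58.3 in G2, and in 4HT 4.30, 2.94, 2.77 and 31.6. Both G2 columns stand above all 6 others. The differences were 3.98 in EtOH and 3.84 in 4HT, or 15.03-fold over both (log2 3.91, SE 0.20, limma adjusted p 2.19e-19). The 3 accessible regions that lie in this window are listed without a value in all 8 columns.

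On chromosome 13, a window (9832176 to 9837175) lies outside every annotated gene, 35804 bp from the nearest start. Its levels in G1, ES, LS and G2 were 1.73, 1.54, 1.301 and 17.5 in EtOH and 1.56, 2.66, 2.09 and 8.35 in 4HT. It was 7.41-fold higher in G2 over both treatments (log2 2.89, SE 0.25, limma adjusted p 1.65e-09), with 3.54 in EtOH and 2.24 in 4HT. No accessible region lies in it, and the nearest one stood at 1 read in LS of EtOH with no read in G2.

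Zc3h7a, which encodes a zinc finger protein that binds RNA, held both a called window and a called region inside the gene, away from its own promoter. The window (chromosome 16, 11141476 to 11146475) stood at 5.78, 2.43, 2.97 and 19.2 in G1, ES, LS and G2 of EtOH and at 2.20, 1.97, 1.91 and 13.9 in 4HT (7.04-fold over both, log2 2.82, SE 0.21, limma adjusted p 2.03e-13). The region inside it (11144001 to 11144174) reached 104 in G2 against 9.90 in LS in EtOH, and 58.9 against 7.67 in 4HT. In EtOH its G1 level of 21.9 lay above both ES (6.29) and LS. That region was 9.26-fold higher over both treatments (log2 3.21, SE 0.19, limma adjusted p 2.67e-08). At Txndc11, the gene next to it, the window differed by 0.20 in EtOH and -0.20 in 4HT, without the gain seen at Zc3h7a.

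The other called region lies on chromosome 3 (5860576 to 5860834), 109281 bp from the nearest gene in the table, Gm8797. Its level was 6.69, 5.78, 5 and 79.4 in G1, ES, LS and G2 of EtOH and 9.54, 7.14, 9.49 and 66.3 in 4HT. The gain was 10.9-fold over both treatments (log2 3.44, SE 0.22, limma adjusted p 7.1e-08). In EtOH alone it stood at 12.1-fold, the widest of any tested region.

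Peak1, a pseudokinase of the cytoskeleton, held a called window inside the gene (chromosome 9, 56221422 to 56226421). It stood at 2.14, 1.06, 1.75 and 5.24 in G1, ES, LS and G2 of EtOH and at 1.499, 1.67, 1.17 and 5.54 in 4HT (3.74-fold, log2 1.90, SE 0.23, limma adjusted p 2.98e-06). Here the gain was wider in 4HT (2.45) than in EtOH (1.36), a difference that was not tested.

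Gm15564 is a long noncoding RNA gene that lies head to head with Kpna1, an importin. Its called window (chromosome 16, 35980881 to 35985880) stood at 2.45, 1.78, 1.92 and 5.42 in EtOH and at 2.501, 1.804, 2.53 and 5.12 in 4HT, in the order G1, ES, LS and G2 (2.40-fold, log2 1.27, SE 0.20, limma adjusted p 0.000352). The tested region over the shared promoter did not follow it: that region stood at 3.24 in LS and 2.31 in G2 in EtOH, and at 2.91 and 1.70 in 4HT. A second window of Gm15564, which overlaps the first by its edge, differed by 0.12 and 0.09.

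The remaining called window was that of n-R5s138 (chromosome 8, 123601016 to 123606015), a gene for 5S ribosomal RNA in the tandem 5S cluster. Its levels were 2.36, 1.06, 1.19 and 3.25 in EtOH and 2.16, 1, 1 and 2.79 in 4HT (2.72-fold, log2 1.44, SE 0.20, limma adjusted p 1.26e-05). Both LS levels are at or near 1 read, the lowest value the signal can take, so the levels cannot go lower. Of the 43 windows in the cluster 7 were tested, in 4 groups that do not overlap each other. All 7 were above 0 in EtOH and 5 at least 1.5-fold higher, beside 50.2% and 2.14% of all tested windows, with a median of 0.72. In 4HT 6 were above 0 with a median of 0.44. The EtOH LS level was 1 read at Rn5s and n-R5s146 and at most 1.34 in the others, so these differences are measured against the floor. The other 5 tested windows of 5S genes elsewhere had a median of -0.18 in EtOH and 0.27 in 4HT.

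Copies of ribosomal genes are near-identical, so reads at Rn18s-rs5 and in the 5S cluster cannot be assigned to 1 copy with certainty. The sequences of the other called intervals were not examined. A gain in accessibility and a change in reads from other copies cannot be told apart there, nor can more open cells and more reads per cell. With the medians of 1 Mb bins removed, none of the 8 intervals passed limma: 4 of the windows at starts or in genes stood at 2.73 (Zc3h7a), 1.91 (Peak1), 1.28 (Gm15564) and 1.15 (n-R5s138), the chromosome 13 window at 2.84, and the Rn18s-rs5 window, the median of its own bin, at 0.00. The Zc3h7a region then stood at 3.23 and the chromosome 3 region at 1.99. In every other setting in which they were tested, all 8 passed.

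**Figure D2:**
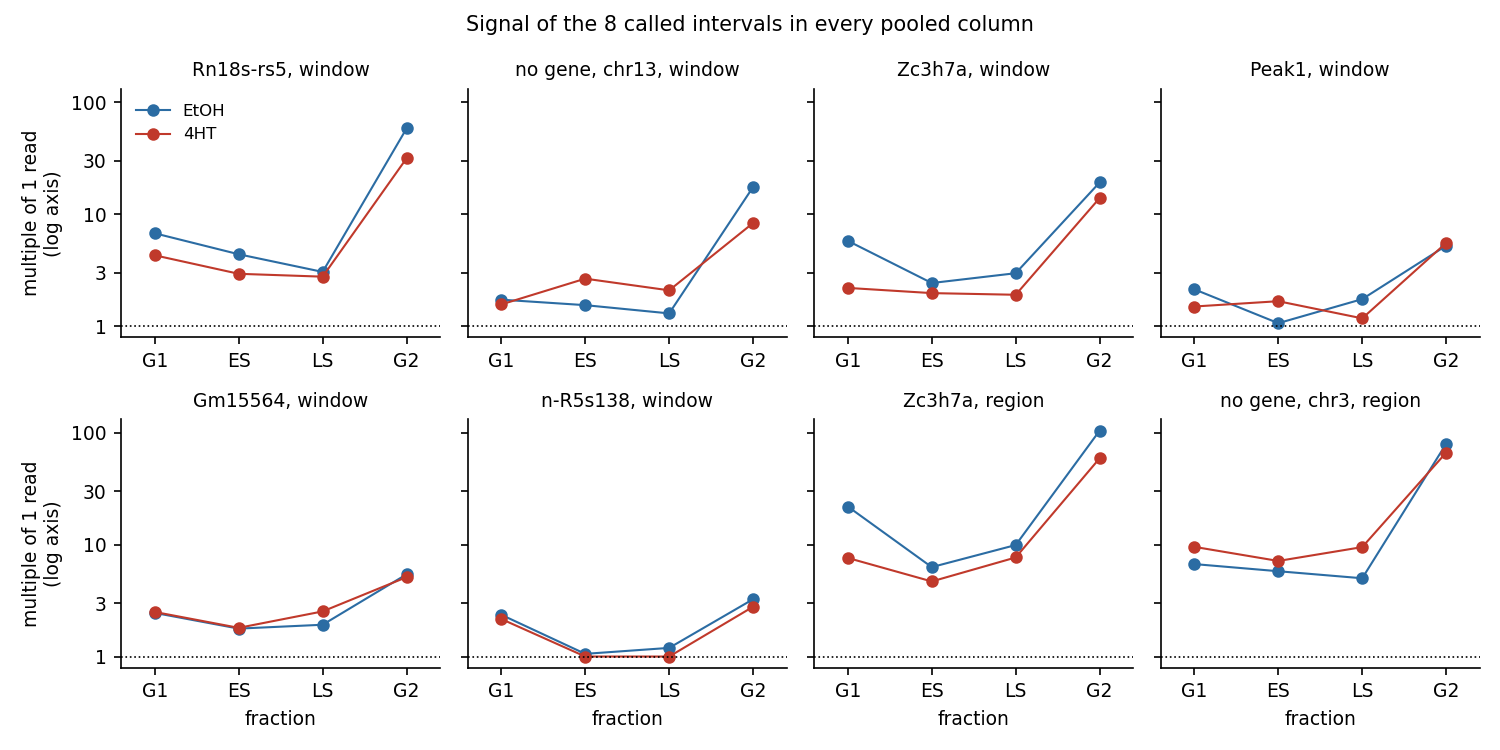
Level of the 6 called windows and 2 called regions in each pooled column, as a multiple of 1 read on a log axis (y axis), by fraction (x axis), with EtOH in blue and 4HT in red; the dotted line is 1 read. In each panel both G2 points are the highest of their treatment, up to 104 for the Zc3h7a region in EtOH.

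The called windows Rn18s-rs5, chromosome 13, Zc3h7a, Peak1 and Gm15564 match no start of a gene with an assigned name. Among the 2652 windows with such a name and a mean EtOH level of at least 2, the 10 highest were 1.92-fold to 2.40-fold higher in EtOH. Weaker windows were left out, such as n-R5s146 at 0.99 in EtOH. In 4HT the same 10 windows ran from -1.13 to 1.65. After Ifnz, an interferon gene (1.26), and n-R5s138 came Snap29, a SNARE protein of membrane fusion, whose start faces that of the lipid kinase gene Pi4ka (1.04). The Snap29 window went from 1.27 in LS to 3.04 in G2 in EtOH, and from 1.84 to 2.16 in 4HT (0.42). The accessible region at that start stood at 1.49 and 5.21 in EtOH (1.48) and at 2.55 and 3.87 in 4HT (0.96). Stard4, a cholesterol carrier, stood at 1.02 in EtOH and -0.35 in 4HT. The shared promoter of Srsf2, a splicing factor, and Mfsd11 stood at 1.02 and 0.42, with levels of 1.3 in LS and 3.08 in G2 in EtOH and 2.17 and 2.51 in 4HT.

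Trak2, an adaptor of mitochondrial transport, and Stradb, which lie head to head, had a difference of 0.98 in EtOH and 0.10 in 4HT at the Trak2 window. Pik3r2, a regulatory subunit of PI3 kinase, stood at 0.94 and 0.00, and the 2 tested regions there at 1.36 and 0.55 in EtOH and -1.17 and 0.96 in 4HT. The ferritin pseudogene Ftl1-ps2 was among the few with a like value in both: 0.97 in EtOH (1.93 in LS, 4.40 in G2) and 0.83 in 4HT (2.14 and 3.27). Of these 10 windows 8 had the same sign in 4HT, and 2 pairs among the 10 overlap (Snap29 with Pi4ka, Trak2 with Stradb).

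Among the same windows, with an assigned name and a mean EtOH level of at least 2, the lowest values were at Aagab and Iqch. Aagab is a clathrin adaptor chaperone and shares a promoter with Iqch on chromosome 9. The Aagab window went from 3.64 in LS to 1.54 in G2 in EtOH (-1.46) and from 2.52 to 1.54 in 4HT (-0.51). Ahr, the aryl hydrocarbon receptor, a ligand-activated transcription factor, stood at 2.99 in LS and 1.44 in G2 in EtOH (-1.27). In 4HT its levels were 1.73 and 1.82 (0.26). Its accessible region had levels of 4.01 and 1.71 in EtOH (-1.55) and 2.17 and 1.94 in 4HT (0.19).

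Fnta (-1.08 in EtOH, 1.28 in 4HT), Elk1, an ETS factor of the MAPK pathway (-0.99 and -0.00), Tomm34, a mitochondrial import factor (-0.98 and 0.08), and the zinc finger gene Zfp119a (-0.98 and -0.34) followed. Of 4 accessible regions in the Zfp119a window 1 was tested, and it was lower in G2 in both pairs. It went from 7.20 in LS to 3.10 in G2 in EtOH (-1.57) and from 7.73 to 1.98 in 4HT (-1.58). It was not called by limma. Among the 10 lowest promoters chosen in this way 4 had the same sign in 4HT, of which Aagab and Iqch are overlapping windows. At Aagab, Ahr, Fnta, Elk1, Tomm34 and Zfp119a the LS level was the highest of the 4 EtOH fractions. These windows were chosen for a high LS level relative to G2, so this in part follows from the choice. At Mcm3, also among the 10, ES (3.02) stood above LS (2.79).

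Beyond the called windows, the windows with the widest differences of 1 sign in both pairs include Tmem200c, which encodes a membrane protein. It stood at 1, 1.105, 1.97 and 1.13 in G1, ES, LS and G2 of EtOH and at 1.01, 1, 2.07 and 1.12 in 4HT, so it was highest in LS and near 1 read elsewhere. Its difference was -0.96 in EtOH and -0.80 in 4HT (limma adjusted p 0.0685, the smallest of any lower window). Nit2, an amidase gene, with Gm16892 stood at -0.77 and -0.63, and Gm17079 and LOC115487268 at -0.86 and -0.69 in EtOH and -0.63 and -0.92 in 4HT. Atrnl1, a membrane protein related to attractin (0.67 and 0.82), Angpt2, a ligand of the TEK receptor (0.73 and 0.65), and Gm13246 (0.67 and 0.81) were higher in G2. Accessible regions in the windows of Nit2 (-1.41 and -0.91), LOC115487268 (-1.12 and -1.27) and Atrnl1 (1.12 and 1.503) had the same signs. None of these passed limma, with adjusted p between 0.0685 for Tmem200c and 0.823 for Gm17079.

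Single accessible regions reached wider differences at low levels. In EtOH a region 3314 bp from Atf3, a stress-induced transcription factor, went from 1 read in LS to 6.41 in G2 (2.32), and in 4HT from 3.67 to 2.43 (-0.19). A region in Gas2l1, a linker of actin and microtubules, stood at 2.31 in EtOH and -0.91 in 4HT, and one 71 bp from Gm39157 at 2.30 and -0.21. The lowest were near Gm44096 (-3.00 in EtOH, 0.52 in 4HT), Gm11993 (-2.78 and -1.52), Oas1a, an antiviral enzyme (-2.77 and 0.20), Gm2033 (-2.71 and -0.39) and in Csgalnact1, an enzyme of chondroitin sulfate synthesis (-2.66 and 1.63). Of these 8 regions only the one near Gm11993 passed 1.5-fold the same way in 4HT.

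Some regions, named after their values were seen, were alike in both pairs. A region in Dnmt3l, a cofactor of the de novo DNA methyltransferases, stood at 1 read in LS and 4.02 in G2 in EtOH and at 1.57 and 4.18 in 4HT, a difference of 1.70 and 1.74. In Rcor2, a corepressor of the LSD1 complex in embryonic stem cells, a region stood at 1.70 and 1.59, and in Zmym5 at 2.08 and 1.77. In Syngr4 a region over the start went from 4.75 to 1.23 in EtOH (-2.27) and from 5.22 to 1.16 in 4HT (-1.84). None passed limma, with adjusted p of 0.592 for Dnmt3l, Zmym5 and Syngr4 and 0.861 for Rcor2.

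Genes of G2 and mitosis showed no common shift. Of 48 tested windows 25 were above 0 in EtOH, with a median of 0.07 beside 0.00 for all tested windows, of which 50.2% were above 0. In 4HT 18 of 48 were above 0, with a median of -0.05. In EtOH 2 were at least 1.5-fold higher and 0 lower, beside 2.14% and 2.72% of all tested windows, the shares against which the counts of the other lists also stand, and none passed limma (smallest adjusted p 0.803). Those 2 were Nek2, a kinase of centrosome separation (1.21 in LS, 2.44 in G2, 0.79), and Aurkb, the Aurora kinase that corrects chromosome attachment (1.18 and 2.04, 0.60). In 4HT both had the other sign, with -0.14 for Nek2 and -0.24 for Aurkb.

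Other mitotic genes with smaller differences in EtOH split by sign. Higher were Ckap2, a spindle protein (0.50), the kinase Aurka (0.42), Kif11, the kinesin of spindle bipolarity (0.40), Bub3 of the spindle checkpoint (0.35) and cyclin B1, Ccnb1 (0.35). Of these only Ccnb1 was above 0 in 4HT (0.32), with levels of 1.89 in LS and 2.80 in G2 in EtOH and 2.23 and 2.42 in 4HT. Lower were the kinesins Kif4 (-0.48) and Kif23 (-0.48), topoisomerase Top2a (-0.44) and Anln, anillin of the cleavage furrow (-0.35), and all 4 of these were above 0 in 4HT (0.20, 0.32, 0.57 and 0.23). Kif23, whose promoter printed above holds a CHR close to a CCAAT box, and Ckap2, which holds both, had opposite signs in EtOH. These are 2 single genes. Over all 1170 tested windows whose promoter held the CHR letters the EtOH median was 0.02. Over the 4052 with a CCAAT box it was 0.00, as for all tested windows, and over the 671 with a TATA box 0.00. Over the 869 with the E2F letters the median was 0.02 in EtOH and -0.00 in 4HT. Of these 869, 2.76% were at least 1.5-fold higher in EtOH and 1.15% lower, beside 2.14% and 2.72% of all tested windows. These shares were not tested.

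Replication genes were centred on 0, with a median of -0.02 over 60 windows in EtOH and 0.01 in 4HT. None was at least 1.5-fold higher and 3 were lower. The lowest was Mcm3, a subunit of the replicative helicase, which stood at 1.98, 3.02, 2.79 and 1.65 in G1, ES, LS and G2 of EtOH (-0.99) and at 2.09 and 2.13 in LS and G2 of 4HT (0.24). The other 2 are overlapping windows of Fen1, the flap endonuclease, and Tmem258 (-0.72 and -0.66), with 0.22 and 0.16 in 4HT. Pola1, a DNA polymerase alpha subunit (-0.47), and Rfc1, the clamp loader (-0.45), did not reach 1.5-fold.

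In EtOH, histone promoters had the list median farthest from 0 among the lists with over 10 tested windows; in 4HT naive pluripotency genes did. The 59 windows of replication-dependent histone genes, in 23 groups that do not overlap, had a median of 0.23 in EtOH, with 44 above 0. Of these windows 4 were at least 1.5-fold higher and 2 lower, beside 2.14% and 2.72% of all tested windows, and they form overlapping pairs at H2ac24, H2ac21 and H2ac6 with H2bc4. In 4HT the median was 0.09 and 35 were above 0. As deposited without centring the EtOH median was 0.00, and relative to the median of all windows it was 0.26 with 44 of 59 above; with bin medians removed it was 0.11 with 40 above. The centred log2 level over the list was 0.66 in G1, 0.50 in ES, 0.53 in LS and 0.79 in G2 of EtOH, and 0.66, 0.40, 0.57 and 0.62 in 4HT, against 0.63 for all tested windows in each column. In EtOH the list thus stood above all windows in G2 and below them in ES and LS.

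The chromosome 13 cluster had medians above 0 in both treatments, and the chromosome 3 cluster in EtOH only. On chromosome 13, 45 windows had a median of 0.23 with 34 above 0 in EtOH, and 0.14 with 29 above 0 in 4HT. On chromosome 3, 14 windows had a median of 0.39 with 10 above 0 in EtOH, but -0.22 with 6 above 0 in 4HT. The highest was H2ac24, with 1 read in LS and 1.84 in G2 in EtOH (0.70), and 1.27 and 1.78 in 4HT (0.60). H2ac21 stood at 0.61 in EtOH and 0.00 in 4HT. The lowest were the overlapping windows of H2bc4 and H2ac6, at 3.63 in LS and 2.02 in G2 in EtOH (-1.07) and 1.75 and 1.72 in 4HT (0.18). H4c3 was lower in both (-0.57 and -0.67). Histone genes have near-identical copies, so these values are uncertain for single genes.

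**Figure D3:**
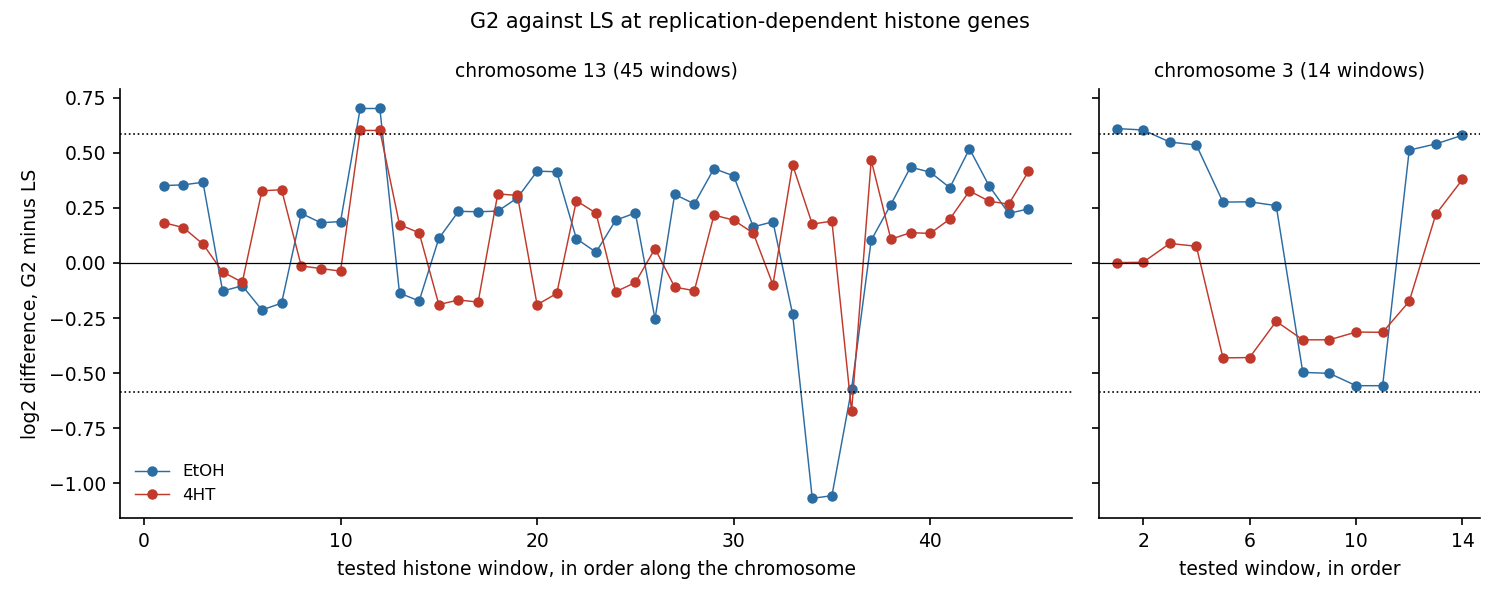
Log2 difference of G2 minus LS (y axis) at the tested windows of replication-dependent histone genes, in order along chromosome 13 (left, 45 windows) and chromosome 3 (right, 14 windows), in EtOH (blue) and 4HT (red); dotted lines mark 1.5-fold, and windows that overlap share reads. In EtOH 34 and 10 windows lie above 0, and the pair near -1.07 is H2bc4 with H2ac6.

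The list of checkpoint and repair genes had a median of -0.06 over 40 windows in EtOH and -0.02 in 4HT, with 1 called. That was Bard1, the partner of BRCA1, which stood at 5.67 in LS and 3.50 in G2 in EtOH (-0.90) and at 4.79 and 4.81 in 4HT (0.27). Fanca (-0.49) and Mdc1 (-0.38) were next.

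Cohesin, condensin and SMC5/6 genes, which shape sister chromatids, had a median of -0.11 over 31 windows in EtOH and 0.03 in 4HT. In EtOH 4 windows were at least 1.5-fold lower, the overlapping ones of Smc6 with Gen1 (-0.75 and -0.68) and of Ncapd3 with Vps26b (-0.74 each), beside 2.72% of all tested windows. The only one higher was Cdca5, the cohesin protector sororin (0.61), beside 2.14% of all. In 4HT these stood at 0.06 and 0.00, at 0.03 and 0.06, and at -0.52. Genes of the anaphase-promoting complex had a median of 0.02 over 19 windows, with 2 lower, both at the shared promoter of Cdc26 and Prpf4 (-0.73 in EtOH, -0.42 in 4HT).

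Ribosomal protein genes, a list with no tie to G2, had a median of -0.01 over 89 windows in EtOH and 0.03 in 4HT, with 4 higher and 1 lower. Rpl18 was the highest (0.79 in EtOH, 0.09 in 4HT). Among naive pluripotency genes the median was 0.09 over 18 windows in EtOH and -0.16 in 4HT. Of these 18 windows 11 were above 0 in EtOH and 6 in 4HT. The only one past 1.5-fold was Zfp42, a zinc finger gene that marks naive cells. It stood at 2.98 in LS and 2.29 in G2 in EtOH (-0.59), with -0.12 in 4HT. The next widest in EtOH, Pou5f1 (-0.48) and Nanog (-0.38), were also lower, unlike most of the list. Neuroectoderm, mesendoderm, primitive endoderm, fibroblast and two-cell-like markers had 5 to 9 tested windows each and none past 1.5-fold. Of the 14 lists, the one of ribosomal and small nuclear RNA genes, which holds n-R5s138, was the only one with a member called by limma.

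**Figure D4:**
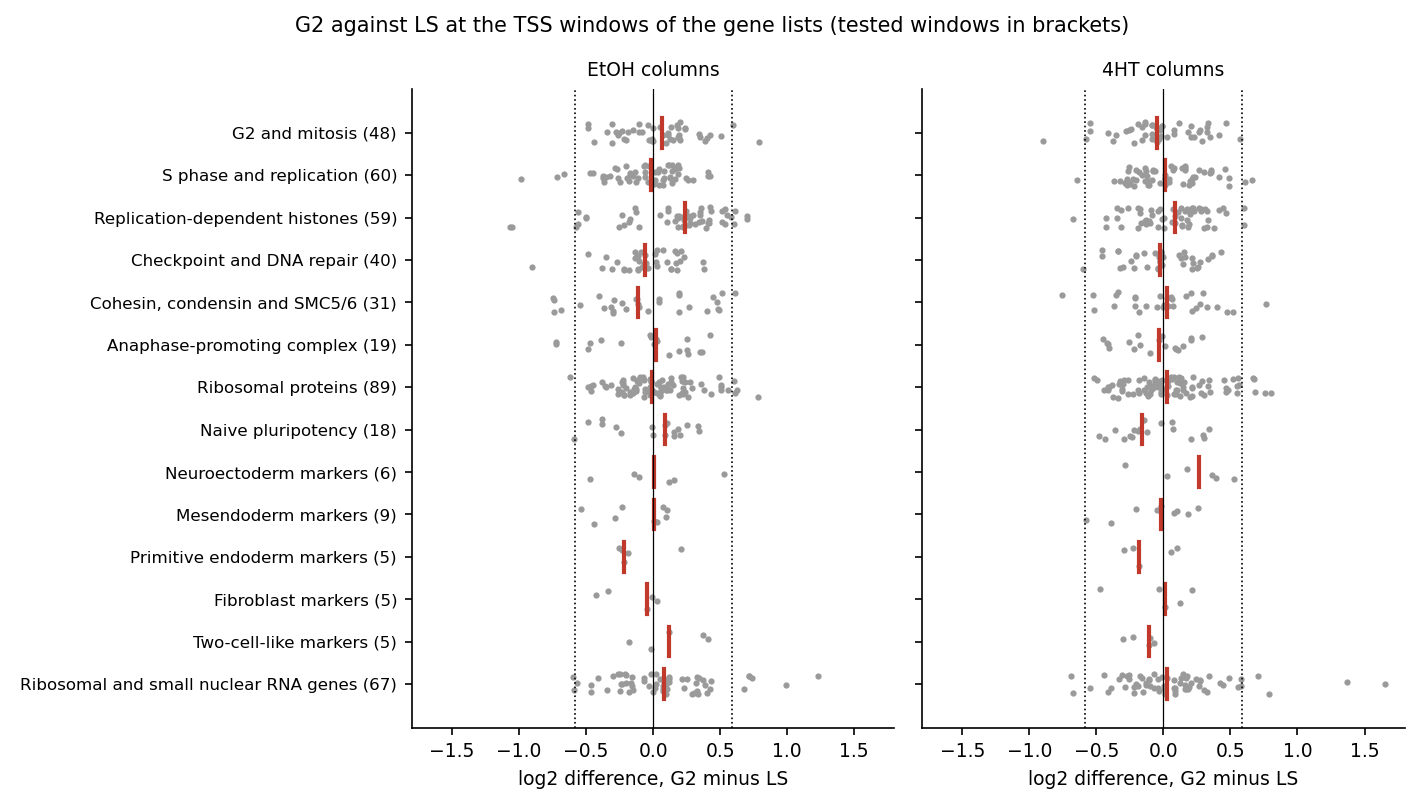
Log2 difference of G2 minus LS (x axis) at the tested TSS windows of 14 gene lists (grey points, number in brackets), in EtOH (left) and 4HT (right); red bars are medians, dotted lines 1.5-fold, and points are spread vertically for legibility. In EtOH the histone median lies at 0.23 and that of G2 and mitosis at 0.07, and in 4HT at 0.09 and -0.05.

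Median differences varied slightly with the number of genes around an interval. Gene-dense DNA as a rule replicates early in S phase and gene-poor DNA late. Windows in 1 Mb bins with 3 to 6 protein-coding genes had a median of -0.03 in EtOH and -0.02 in 4HT, and those in bins of 21 or more genes 0.02 and 0.01. For regions the median ran from -0.08 in bins of 3 to 6 genes to 0.06 in bins of 21 or more in EtOH, and from -0.04 to 0.06 in 4HT. Bins of 0 to 2 genes stood at -0.01 in EtOH and -0.04 in 4HT for regions, so the EtOH series is not monotone. Bins of 21 or more genes minus those of at most 6 gave 0.13 in EtOH and 0.09 in 4HT for regions, and 0.07 and 0.04 without the filter on low values. For windows the gap was 0.04 in both, 0.03 and 0.02 without the filter, and 0.01 in 4HT with the higher minimum. These shifts are far below the SD of single regions (0.66), and no test was made.

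**Figure D5:**
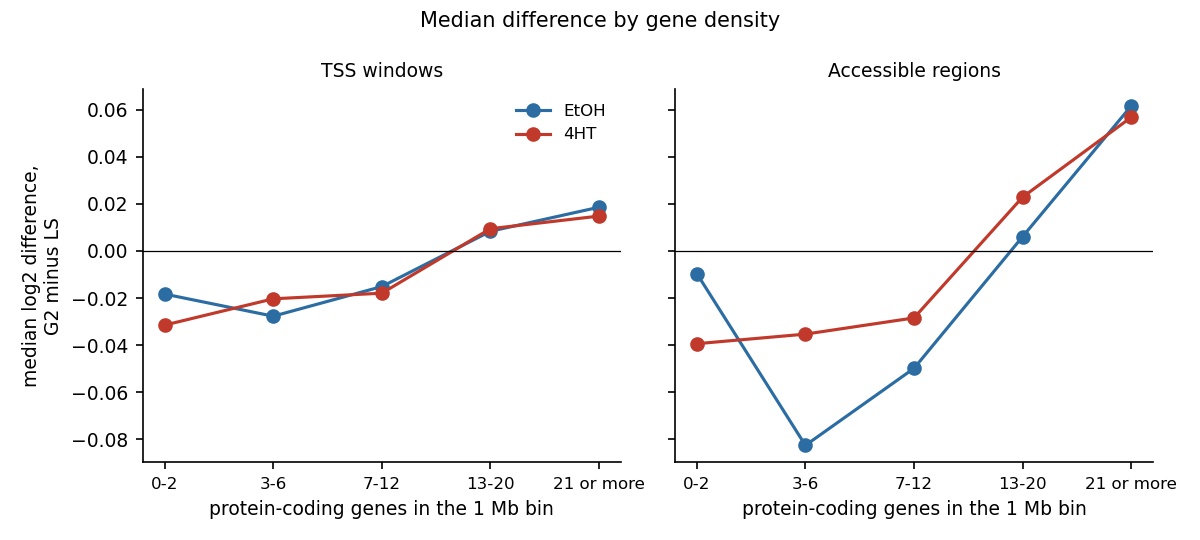
Median log2 difference of G2 minus LS (y axis) for TSS windows (left) and accessible regions (right) by the number of protein-coding genes in their 1 Mb bin (x axis), in EtOH (blue) and 4HT (red). In both treatments the regions of the most gene-dense bins lie highest, at 0.06.

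Regions over 10000 and up to 100000 bp from a start had a median of -0.07 in EtOH and -0.08 in 4HT, and 23.7% of these were at least 1.5-fold lower in EtOH against 18.7% higher. Within 1000 bp of a start the medians were 0.01 and 0.03, with 13.7% lower and 15.4% higher. By chromosome the region medians in EtOH ran from -0.11 on chromosome 18 to 0.06 on chromosome 15, leaving out chromosome Y, whose 5 regions had a median of 0.64 in EtOH and -0.55 in 4HT, and the window medians from -0.04 on chromosome 16 to 0.04 on chromosome 15.

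Regions read in only 1 of the compared columns were more numerous on the side of the deeper column. In EtOH 22989 regions had a read in G2 and none in LS, and 14131 the reverse; in 4HT, where LS is the deeper column, the counts were 14249 and 22337. Most stood at 1 read, 56.5% of those in G2 only and 68.6% of those in LS only in EtOH. In both treatments 3667 regions were read in G2 and not in LS, 16.0% of the EtOH and 25.7% of the 4HT regions of that kind. The counts to set beside these shares are 14249 in 4HT and 22989 in EtOH of all 127646 regions. In LS and not in G2 there were 3600 in both treatments, 25.5% and 16.1%, beside 22337 in 4HT and 14131 in EtOH of all. A region in Syngr1, chosen after its value was seen, stood at 5.35 in G2 of EtOH with no read in LS, but at 1.22 in LS and 1 read in G2 of 4HT. A region in Atp8a2, chosen likewise, had 4.21 in LS of EtOH and 3.90 in LS of 4HT and no read in either G2 column.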

How the data were processed

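The authors deposited a coverage signal for accessible regions and for windows of 5000 bp at transcription start sites (TSSs), in 8 columns that pool the 2 libraries of each group. The build mm10, featureCounts and DESeq2 are named in the submitters' processing notes; the aligner, the coverage program and the role of those tools are not given in the sources used here. From the values, the deposited signal was read as CPM, averaged over covered bases only, with 1 read as the minimum of each column. An average over covered bases cannot fall below 1 read, so losses at weak intervals are understated.

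Each column was divided by its smallest value, log2 transformed without a pseudocount and centred by cyclic loess over the 8 columns (limma 3.58.1, R 4.3.3). Intervals were tested if all 8 columns held a read and the mean multiple was at least 1.3 (windows) or 2 (regions). In EtOH, where each group is 1 column, no test is possible, and called means a difference of at least 1.5-fold. The only test was limma (terms for fraction and treatment, 3 residual degrees of freedom, intensity trend, robust moderation, Benjamini-Hochberg adjusted p at 0.05) over all 8 columns, for G2 minus LS over both treatments. Its p-values measure the spread between pooled columns, and the labels do not say that the libraries came from separate cultures. On simulated data, 200 changed intervals served to check the fit.

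Windows were named by RefSeq starts on GRCm38.p6, the assembly called mm10; 28600 of the 38053 distinct windows matched. No deposited column was left unassigned. The members of the comparison and the 14 gene lists were chosen with earlier results of these data known. Named were the 10 windows at a matching start of a gene with an assigned symbol (predicted genes and windows named by overlap passed over) and a mean EtOH multiple of at least 2 that rose or fell most, the 5 regions each way, every interval called by limma, the 3 widest members of a list, mitotic genes at 1.25-fold or more, and the 10 windows widest in both treatments. Alternatives were 2 pseudocounts, no filter, a higher minimum, 4 centrings, a correction for reads hidden by the average, removal of 1 Mb bin medians, a 2-fold threshold, no intensity trend and a fit of the 4 compared columns. Tables were handled in Python 3.11.15 with pandas 2.3.3.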

Additional observations from a re-analysis of the deposited data

Results flagged for a closer look

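The window of Ifnz, an interferon zeta gene on chromosome 4, had opposite signs in the 2 treatments: G2 minus LS was 1.26 on the log2 scale in EtOH and -1.13 in 4HT. In EtOH the level went from 1.22 times 1 read in LS to 3.42 in G2, and in 4HT from 2.52 to 1 read.

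At Fnta, which encodes the alpha subunit of protein prenyl transferases, the signs were the other way: -1.08 in EtOH and 1.28 in 4HT. The levels in LS and G2 were 2.92 and 1.61 in EtOH and 1.19 and 2.55 in 4HT. Each value is a difference between single pooled columns, and the difference between the treatments was not tested. Among the tested windows, 13 were at least 1.5-fold higher in EtOH and as far lower in 4HT, and 15 the reverse.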

How the results depend on the processing

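No paired analysis was possible because the deposited columns pool the replicates and carry no replicate number; for the same reason no library could be left out. The counts in EtOH moved with the pseudocount, the filter, the centring and the threshold. With a pseudocount of 0.1 on the deposited signal, 44 windows were higher and 48 lower, and 1138 and 1174 regions; with 0.5, 3 and 0 windows and 81 and 127 regions. The higher minimum left 69 and 78 windows and 468 and 456 regions, and no filter gave 760 lower windows and 9721 and 13704 regions. As deposited, without centring, 57 windows were higher and 2082 lower; as multiples of 1 read without centring, 1353 and 96, and 3658 and 872 regions. Correcting for reads that the averaging hides gave 878 and 889 windows. At 2-fold, 22 and 15 windows and 651 and 710 regions passed. In limma over both treatments, removal of 1 Mb bin medians left 0 windows and 0 regions higher. The count of windows lower was 1 with either pseudocount and 4 with loess on the compared pair or with the 4 compared columns alone. In all, 33 of 92 counts moved by more than 1.5 times. Of 95 values of the 8 called intervals, 87 kept direction and call, and the other 8 were those with bin medians removed. Of 40 values by gene density 15 moved by more than 1.5 times or changed sign. Of 356 values of named intervals in EtOH, 64 were marked as moved and 1 changed sign: Ftl1-ps2 stood at -0.024 with bin medians removed. Of 137 list medians, 50 were marked as moved. Among them, the median of cohesin, condensin and SMC5/6 genes went from -0.11 to 0.02 with bin medians removed. The cause of these changes was not tested, except that each alternative changes the scale, the threshold or the intervals that enter. A level near 1 read limits what can be measured in 1 column of 8.17 M or 11.2 M reads.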
